A study of Arabidopsis thaliana with 2 samples.

Results

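Class XI myosins are the motor proteins that carry organelles and vesicles along actin filaments in plant cells. The 9 genes described here are XI-A, XI-B, XI-C, XI-D, XI-E, XI-J, XI-K, XI-1 and XI-2 of Arabidopsis thaliana, taken by gene identifier out of 33557 genes in a table of expression in pollen tubes, and all 9 were in that table. They are part of a class of 13 genes, of which the other 4 (XI-F, XI-G, XI-H and XI-I) are given beside them as a related list. RNA was measured in 1 library of double mutant tubes with the genotype label drop1- drop2- (drop) and in 1 library of wild-type tubes (WT). The title of the study presents the sperm cells as cargo of the tube. In both groups, pollen germinated on a cut pistil and the tubes were cut off at 300 to 400 µm beyond the style. Each stigma, emasculated for 36 h, received 500 to 600 grains, and tubes from 2 stigmas were pooled for each Smart-seq2 library of polyadenylated RNA. Genotypes follow the genotype labels, since the treatment text gives double mutant grains for the WT sample as well. The names DROP1 and DROP2 matched 0 gene names in the reference table, so whether the mutated genes were lower in drop was not checked.

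A class XI myosin has a motor head that binds actin and splits ATP, a neck that binds calmodulin or similar light chains, and a coiled-coil and globular tail that docks on cargo through receptors. In pollen tubes this transport drives the fast streaming of the cytoplasm and supplies vesicles to the growing tip. In Arabidopsis, XI-C and XI-E are known for their part in pollen tube growth, XI-A, XI-B, XI-D and XI-J for expression in pollen, and XI-K, XI-1 and XI-2 for organelle movement and cell expansion in leaves, roots and root hairs. XI-I, which is among the other 4, moves the nucleus in leaf and root cells by binding WIT proteins of the nuclear envelope.

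The members are paralogs, so the values below depend on whether fragments of close copies can be told apart. The stretch of the coding sequence shown here encodes the P-loop, the ATP-binding turn of the motor head, which is among the most conserved parts of any myosin. It was read from the RefSeq genome and annotation of TAIR10.1. The capitals mark the 24 bases of the P-loop codons, with 6 bases on each side, 5′ to 3′ on the coding strand.
XI-A: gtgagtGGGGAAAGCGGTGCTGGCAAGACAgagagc
XI-B: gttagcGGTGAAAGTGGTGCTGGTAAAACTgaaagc
XI-C: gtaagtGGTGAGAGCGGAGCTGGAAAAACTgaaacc
XI-D: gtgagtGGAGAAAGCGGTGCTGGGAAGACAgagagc
XI-E: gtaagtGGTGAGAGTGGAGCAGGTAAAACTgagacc
XI-J: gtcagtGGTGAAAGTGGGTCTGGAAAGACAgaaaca
XI-K: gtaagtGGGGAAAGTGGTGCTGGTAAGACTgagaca
XI-1: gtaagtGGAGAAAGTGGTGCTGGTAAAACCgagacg
XI-2: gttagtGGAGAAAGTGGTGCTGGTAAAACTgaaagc

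The XI-B stretch lies at chr1:1087927-1087962 on the plus strand, in exon 5 of 38. Those of the other members given most room below lie at chr1:1263449-1263484 on the plus strand in XI-A, at chr2:14095725-14095760 on the minus strand in XI-D and at chr3:21535572-21535607 on the plus strand in XI-J. Each of the 9 stretches lies within 1 exon. Even here the P-loop codons of the other members differed from those of XI-B, by 1 base in XI-2, by 2 in XI-K and XI-1, by 3 in XI-E, by 4 in XI-C and by 5 in XI-A, XI-D and XI-J. Over the aligned bases of the coding sequences, with gaps left out, identity between members ran from 65.9% to 86.6% over the 36 pairs. The median was 68.4%. Only 3 pairs shared an unbroken stretch of at least 50 bases, and these stretches are shown because reads that fall within them cannot be assigned to a gene by sequence.
XI-A and XI-D: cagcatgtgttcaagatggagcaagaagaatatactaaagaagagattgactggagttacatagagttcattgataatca
XI-B and XI-2: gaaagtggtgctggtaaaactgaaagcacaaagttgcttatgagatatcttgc
XI-C and XI-E: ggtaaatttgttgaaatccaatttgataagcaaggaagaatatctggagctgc

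The XI-A and XI-D stretch of 80 bases spans an intron, from 1265214 to 1265367 on chromosome 1 in XI-A, and the XI-B and XI-2 stretch of 53 bases overlaps the P-loop codons shown above, at chr1:1087936-1087988 in XI-B. The XI-C and XI-E stretch, also of 53 bases, lies at chr1:2781221-2781273 in XI-C. Such shared sequence is a small part of each transcript. Windows of 50 bases that also occur in a transcript of another gene made up 0.542% of XI-A, 0.580% of XI-D, at most 0.0857% of XI-B, XI-C, XI-E and XI-2, and 0 of XI-J and XI-1. The highest share, 2.64%, was in XI-K, through AT5G20470, which was listed at 0 in both libraries. The read length is not given in the sources used here, so these shares describe the transcripts, not the authors' assignment of fragments.

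The libraries as a whole set how far a ratio can be read. Expression was deposited as FPKM, a value per kilobase of transcript that is scaled to the mapped fragments. Its sum was 2.82 times as large in drop as in WT. Because each value is per kilobase, this sum also depends on transcript lengths and need not be equal between libraries. Genes with transcripts under 1 kb held 77.8% of the sum in drop and 68.1% in WT. Scalings that equalize the libraries apply log2 factors from -1.105 to -1.497 to the drop values. For this reason the makeup of the class within a library, where such a factor cancels, is given beside each ratio. With 1 library on each side there is no replicate error and no test, and "higher" and "lower" describe these 2 libraries only. In transcripts of at least 3 kb, the smallest steps of the values put 1 fragment at 0.245 FPKM kb in drop and 0.135 FPKM kb in WT. Fragment numbers below are FPKM times the longest annotated transcript divided by that value, and are approximate.

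XI-B (AT1G04160) was the most abundant member in both libraries. It stood at 13.1 FPKM in drop and 5.71 FPKM in WT, or about 282 fragments in drop and 223 in WT. The ratio of drop to WT was 2.29 as deposited, a direction that turned at equal sums, as given below. Among all genes XI-B ranked 2385 in drop and 3965 in WT, and among the 1545 genes with a transcript of at least 4 kb it ranked 15 in drop and 33 in WT. It also made up most of the class, with 69.3% of the summed FPKM of the 9 members in drop and 57.0% in WT.

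XI-J (AT3G58160) has the shortest longest transcript of the 9, at 4507 bases against 5046 to 6086 bases in the others. It stood at 2.53 FPKM in drop and 0.729 FPKM in WT, a ratio of 3.46, on about 46.4 fragments in drop and 24.3 in WT. XI-D (AT2G33240) stood at 1.51 FPKM in drop and 0.455 FPKM in WT, a ratio of 3.33, on about 37.6 fragments in drop and 20.5 in WT. These pollen-expressed members kept nearly the same level relative to each other, with XI-D at 0.599 times XI-J in drop and 0.624 times in WT. Their shares of the class were 13.4% for XI-J and 8.02% for XI-D in drop, against 7.27% for XI-J and 4.54% for XI-D in WT.

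XI-A (AT1G04600) had its higher value in the WT library, unlike these 3. It stood at 1.42 FPKM in drop and 2.38 FPKM in WT, or 0.596 times the WT value as deposited, on about 33.4 fragments in drop and 102 in WT. Its share of the class was 7.53% in drop and 23.8% in WT. XI-A was second only to XI-B in WT and came after XI-B, XI-J and XI-D in drop.

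The shift of XI-A within the class does not depend on a factor between libraries. XI-A stood at 0.109 times XI-B in drop and 0.417 times XI-B in WT, a 3.84-fold difference between the libraries. Against XI-D, its closest paralog by shared stretch, XI-A stood at 0.938 times in drop and 5.24 times in WT, a 5.58-fold difference. Against XI-J the difference was 5.81-fold. In rank among the genes with a transcript of at least 4 kb, XI-A was at 98 in drop and 73 in WT, while XI-J was at 53 in drop and 193 in WT and XI-D at 91 in drop and 260 in WT. XI-D and XI-A lay 1.07-fold apart in drop, on fewer than 40 fragments each, so their order there rests on few fragments.

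**Figure D1:**
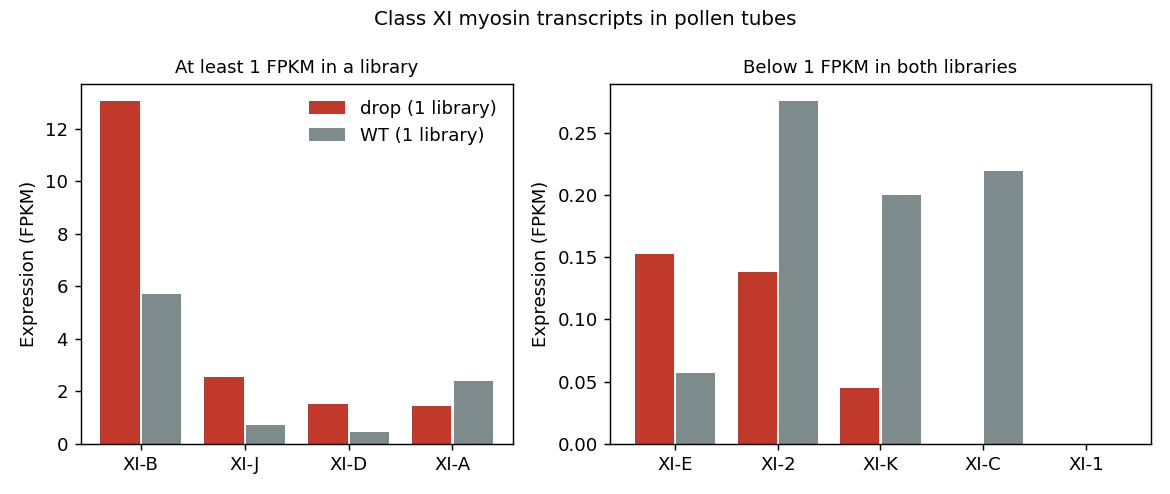
Expression in FPKM of the 9 class XI myosins, with 1 bar for the drop library and 1 for the WT library and no error bars because there are no replicates. The panels have different axes: as deposited, XI-B, XI-J and XI-D had their higher value in drop and XI-A in WT (XI-B turned at equal sums), while the other 5 members stayed below 1 FPKM in both libraries.

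The pollen tube growth pair XI-C and XI-E was close to the lower end of the table. XI-C (AT1G08730) was listed at 0 in drop and stood at 0.219 FPKM in WT, on about 8.54 fragments. XI-E (AT1G54560) stood at 0.152 FPKM in drop and 0.0567 FPKM in WT, on about 3.14 fragments in drop and 2.11 in WT. Together they held 0.808% of the class in drop and 2.75% in WT. At so few fragments no difference between the libraries can be read for either gene.

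The members known from leaves and roots were as low. XI-2 (AT5G43900) stood at 0.138 FPKM in drop and 0.276 FPKM in WT, on about 2.90 fragments in drop and 10.5 in WT. XI-K (AT5G20490) stood at 0.0451 FPKM in drop and 0.1998 FPKM in WT, on about 1.03 fragments in drop and 8.26 in WT. XI-1 (AT1G17580) was listed at 0 in both libraries. A value of 0 in such a table can be a failed estimate, so no fold is given against it.

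From high to low, the order was XI-B, XI-J, XI-D, XI-A, XI-E, XI-2 and XI-K in drop, followed by XI-C and XI-1 at 0. In WT it was XI-B, XI-A, XI-J, XI-D, XI-2, XI-C, XI-K and XI-E, followed by XI-1 at 0. Without replicates there is no spread against which neighbours in this order could be set, and the 5 members below 1 FPKM in both libraries all rest on at most 10.5 estimated fragments in either library.

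**Figure D2:**
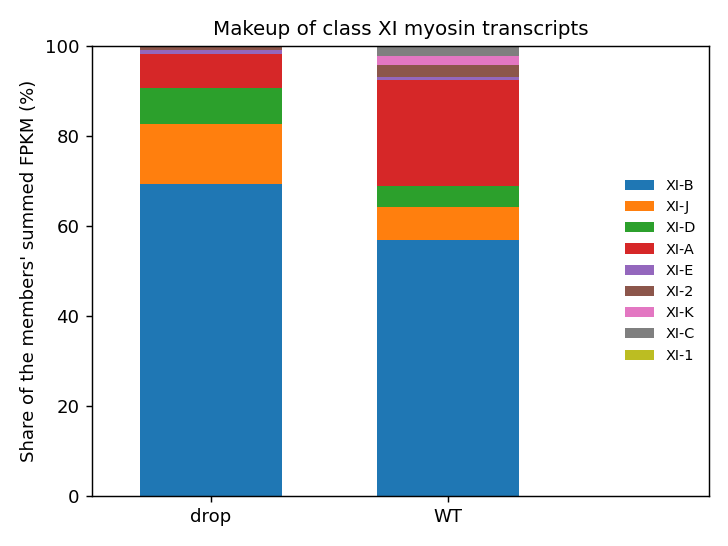
Share in percent of the summed FPKM of the 9 members held by each member, with the drop library left and the WT library right. XI-B made up 69.3% in drop and 57.0% in WT, and the share of XI-A was 7.53% in drop and 23.8% in WT.

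A gene was called 2-fold higher in drop at a log2((drop FPKM + 1)/(WT FPKM + 1)) of 1 or more, and 2-fold lower at -1 or less, provided that FPKM reached 1 in either library. Adding 1 pulls the ratio of low genes towards 0 on the log2 scale. Of the 9 members, 4 passed the filter, and 2 of these, XI-B with a log2 ratio of 1.07 and XI-J with 1.03, were called higher in drop, while 0 were called lower. Of the 9880 genes past the filter, 26.4% were called higher and 30.4% lower, and of the 205 of these with transcripts of at least 4 kb, 16.6% were called higher and 24.4% lower. XI-D was at 0.79 and XI-A at -0.48. The median over the 4 members was 0.91, against -0.07 over all genes past the filter and 0.02 over those with transcripts of at least 4 kb. Over all 9 members, of which 5 stayed below 1 FPKM in both libraries, the median was 0, the value of XI-1.

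The direction of XI-B depended on the scaling. Its log2 ratio was -0.25 when the drop column was scaled to the WT sum (equal sums). It was 0.08 when the genes with 10 FPKM or more in each library were given a median ratio of 1 (median-ratio scaling). XI-B and XI-J were then not called, and XI-A was called lower, at -1.17 at equal sums and -1.03 under the median-ratio scaling. At equal sums 4.39% of all genes past the filter were called higher and 48.6% lower. The median log2 ratio over these genes was -0.96 at equal sums and -0.77 under the median-ratio scaling, so most of the table moved down with XI-A. Under the 5 scalings, the deposited values included, XI-J ranged from 0.13 to 1.34 and XI-D from 0.08 to 1.11, so that both stayed above 0. XI-A ranged from -1.17 to -0.10 and stayed below 0. XI-C was listed at 0 in drop, so a factor on the drop values cannot change its ratio, and its sign is not read here. XI-B, XI-E, XI-K and XI-2 took both signs.

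**Figure D3:**
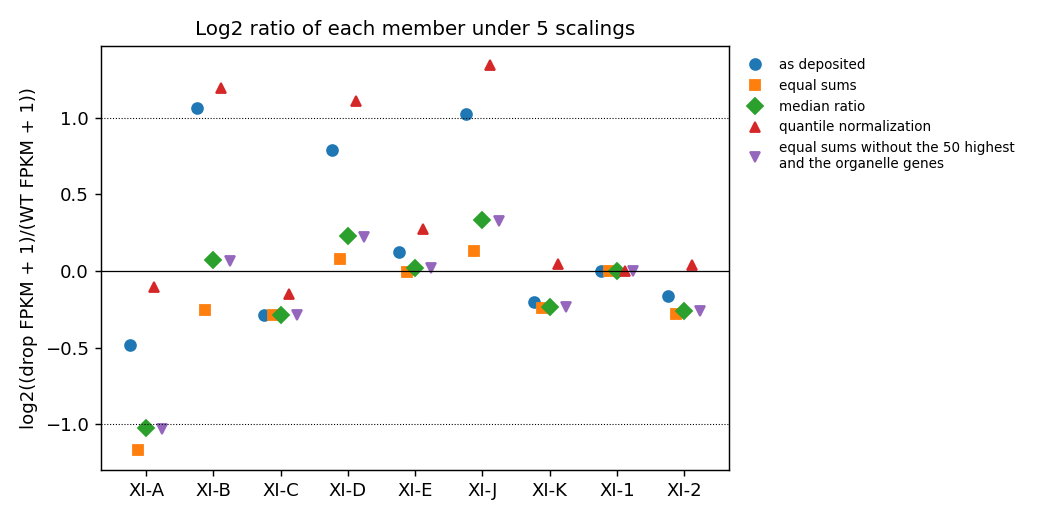
Log2((drop FPKM + 1)/(WT FPKM + 1)) of each member under 5 scalings of the libraries, 1 symbol per scaling, with dotted lines at the 2-fold limits. XI-A lies below 0 and XI-D and XI-J above 0 under each of the 5, while XI-B lies between -0.25 and 1.20.

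A wild-type pollen tube is a vegetative cell that carries 2 sperm cells, so markers of cell types are given beside these values. In bulk samples, fewer cells of a type and less RNA per cell cannot be told apart. Over the 13 sperm markers, 11 passed the filter and all 11 were called lower in drop. Their summed level, with the other 2 included, was 3451 FPKM in drop and 51600 FPKM in WT. DAZ1 and DAZ2, of which only DAZ2 passed the filter, were at 0 in drop. GEX2, below the filter, went the other way, with 0.331 FPKM in drop on about 4.41 fragments and a value close to 0 in WT. Of 4 green tissue markers, 4 were called lower, with a sum of 13.3 FPKM in drop and 122 FPKM in WT. Of the 10 vegetative tube markers, 10 were called higher as deposited and 2 at equal sums. Their levels ran from 160.3 to 28010 FPKM in drop and from 26.0 to 11006 FPKM in WT. Of 4 style and carpel markers, 1 passed the filter: HAF, listed as CES, at 55.1 FPKM in drop and 43.8 FPKM in WT. Its log2 ratio of 0.33 was below 0 under the 4 other scalings and -1.12 at equal sums. Below the filter, NTT was at 0 in drop and 0.977 FPKM in WT, and HEC1 was at 0 in both. SPT, also below it, went the other way from NTT, at 0.556 FPKM in drop and 0.106 FPKM in WT. As deposited, XI-A had its lower value in drop, as did the green tissue markers and the sperm markers past the filter. XI-J, XI-D and the vegetative markers had their lower value in WT. At equal sums XI-J was at 0.13 and XI-D at 0.08, against a median of 0.50 over the 10 vegetative markers. Of these markers, AGP11 and RALFL4 were each at -0.15, and the others were above 0 and above XI-J and XI-D. Over all genes past the filter, 26.4% were called higher and 30.4% lower as deposited, against 4.39% and 48.6% at equal sums. Whether sperm or green tissue RNA has a part in the XI-A value was not tested.

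Few annotated neighbours overlap the members. AT3G58150 overlaps XI-J by 72 bases on the opposite strand and stood at 0.507 FPKM in drop and at 0 in WT. AT5G43910 overlaps XI-2 by 142 bases on the same strand and was listed at 0 in both libraries. AT5G03155 overlaps XI-K by 129 bases on the opposite strand and is not analysed here.

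The other myosins of the genome were mostly low as well. None of the other 4 class XI genes reached 1 FPKM, and their sum was 0.721 FPKM in drop and 0.622 FPKM in WT. Most of that was XI-I, at 0.672 FPKM in drop and 0.507 FPKM in WT. Class VIII myosins, which are linked to plasmodesmata and endocytosis, had 2 of 4 genes past the filter. As deposited, 1 was called higher and 1 lower in drop, beside 26.4% higher and 30.4% lower over all genes past the filter. VIIIB (AT4G27370) stood at 36.5 FPKM in drop and 17.4 FPKM in WT, above each class XI myosin in both libraries. Its log2 ratio was 1.03 as deposited and -0.40 at equal sums. ATM2 (AT5G54280) was lower under each of the 5 scalings, at 1.08 FPKM in drop and 6.87 FPKM in WT, or about 19.4 fragments in drop and 224 in WT.

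Of the receptors that tie class XI myosins to vesicles, some were more abundant than XI-B in both libraries and others stayed below 1 FPKM. MyoB receptors share the domain DUF593. Of the 7 in the list, the reference table names 3 as MyoB1, MyoB2 and MyoB3, and these stayed below 1 FPKM in both libraries. The other 4, given here by identifier, passed the filter, and as deposited 3 were called higher and 0 lower, against 0 higher and 1 lower at equal sums. Over all genes past the filter, 26.4% were called higher and 30.4% lower as deposited, against 4.39% and 48.6% at equal sums. AT1G74830, described in RefSeq as a putative myosin-binding protein, stood at 178.7 FPKM in drop and 32.1 FPKM in WT, a log2 ratio of 2.44 that was 0.96 at equal sums. AT5G06560 stood at 29.8 FPKM in drop and 8.08 FPKM in WT, and AT2G30690 at 11.4 FPKM in drop and 2.91 FPKM in WT. Their log2 ratios at equal sums were 0.35 for AT5G06560 and 0.37 for AT2G30690. AT1G18990 stood at 19.7 FPKM in drop and 30.8 FPKM in WT, a log2 ratio of -0.62 that was -1.99 at equal sums and below 0 under each of the 5 scalings.

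Adaptors between XI-I and the nuclear envelope had 4 of 5 genes past the filter, and as deposited 1 was called higher and 0 lower. The shares over all genes past the filter were 26.4% higher and 30.4% lower. WIT2 stood at 4.49 FPKM in drop and 0.480 FPKM in WT, on about 42.5 fragments in drop and only 8.22 in WT. Its log2 ratio of 1.89 stayed above 0 under each of the 5 scalings but was not called at equal sums, at 0.81. With so few fragments in WT, the size of this ratio is uncertain. WIT1 stood at 38.2 FPKM in drop and 30.0 FPKM in WT, and WIP2 at 23.3 FPKM in drop and 24.4 FPKM in WT. WIP1 stood at 2.28 FPKM in drop and 0.963 FPKM in WT, or 0.74 as a log2 ratio, and its sign changed at equal sums (-0.12). At equal sums WIT1 and WIP2 were called lower, with log2 ratios of -1.09 and -1.46, as were 48.6% of all genes past the filter. The small GTPases known to bind class XI tails were RABC2A, at 7.32 FPKM in drop and 2.09 FPKM in WT, and RABD1, listed as ATFP8, at 0.720 FPKM in drop and 1.17 FPKM in WT.

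As groups, the actin tracks and the calmodulin light chains summed to more than the motors, at 2624 FPKM for actins and 4607 FPKM for calmodulins in drop and 604 FPKM for actins and 1403 FPKM for calmodulins in WT, although CAM5, at 10.4 FPKM in drop, lay below XI-B. All 8 actins passed the filter, and 5 were called higher and 0 lower as deposited, against 1 higher and 1 lower at equal sums. ACT11, an actin of reproductive organs, stood at 707 FPKM in drop and 144 FPKM in WT, and ACT2, known from vegetative tissues, at 926 FPKM in drop and 119 FPKM in WT. ACT2 was called higher under each of the 5 scalings. All 7 calmodulins passed the filter, and 4 were called higher and 0 lower as deposited, against 0 higher and 3 lower at equal sums. Beside both lists, the shares over all genes past the filter were 26.4% higher and 30.4% lower as deposited. At equal sums these shares were 4.39% higher and 48.6% lower. CAM2 stood at 1858 FPKM in drop and 543 FPKM in WT, CAM3 at 1664 FPKM in drop and 506 FPKM in WT and CAM7 at 948 FPKM in drop and 250.03 FPKM in WT. Actins and calmodulins are close paralogs among themselves, so their single values are uncertain.

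**Figure D4:**
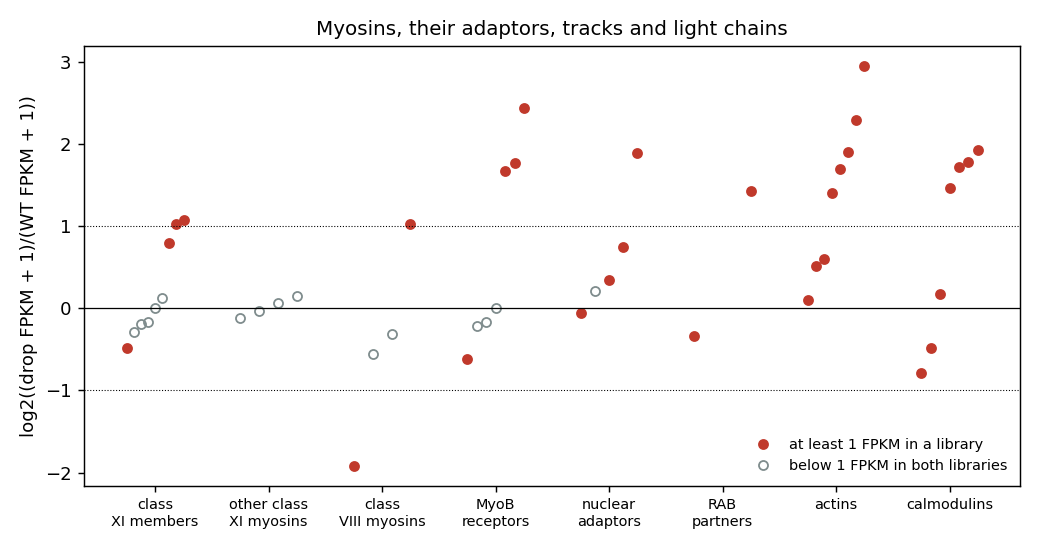
Log2((drop FPKM + 1)/(WT FPKM + 1)) of each gene in 8 lists as deposited, with filled points for genes of at least 1 FPKM in a library, open points for the rest and dotted lines at the 2-fold limits. The members lie between -0.48 and 1.07, below the highest actin at 2.95 and above ATM2 of class VIII at -1.92.

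The named genes closest in level to XI-B, by Euclidean distance in log2(FPKM + 1) over the 2 libraries, were ARF10, ELC, AGL65, RD28 and AGD7, at distances of 0.051 to 0.11. AGL65, a MADS-box factor of pollen, stood at 13.6 FPKM in drop and 5.91 FPKM in WT. With 2 libraries, such likeness says only that these genes had about the same levels.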

How the data were processed

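RNA was measured in 1 drop and 1 WT library. The authors deposited 1 column of FPKM for each library, per the file headers. The submitters' processing notes name TopHat2 2.0.14, Cufflinks 2.2.1 and TAIR10. Parameters, annotation release and read length are not given here because the sources used do not state them. Python 3.11.15 with pandas 2.3.3, numpy 2.4.6 and biopython 1.88 was used. The log2 ratio with a pseudocount of 1 was computed for each gene, with no test. Scripts were tested on simulated data. The value of 1 fragment was read from genes of 3 kb or more with 1 annotated transcript, as the median of the lowest cluster of FPKM multiplied by length (100 genes in drop and 50 in WT). Symbols, lengths, overlaps and sequences are those of RefSeq on TAIR10.1, which 32810 of 33557 identifiers matched, and printed coordinates are of that build. Sequence comparisons used the transcript numbered 1 of each gene.

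The members and lists were chosen with earlier results of these data known. The lists hold 76 genes, all in the table. All 9 members are described. From each related list the 2 genes of highest mean FPKM and the 2 of largest absolute log2 ratio among genes of at least 1 FPKM were named, and other genes where the text says what they are. Alternatives were pseudocounts of 0.1 and 10, FPKM filters of 10 and none, a 4-fold rule and 4 scalings: equal sums, a median ratio of 1, equal sums after removing organelle genes and the 50 most abundant genes, and quantile normalization. Shares of the class were also computed from estimated fragments and over all 13 class XI genes.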

Additional observations from a re-analysis of the deposited data

How the results depend on the processing

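No paired analysis was possible because there is 1 sample on each side. The scaling between the libraries sets most of what moved. The 2 members at least 2-fold higher in drop became 0 under 3 scalings (equal sums, the median-ratio scaling, and the sums that leave out organelle genes and the 50 most abundant genes), and 1 member was called lower under each of these. The count higher was also 0 with a pseudocount of 10 and 0 under the 4-fold rule, and 1 with FPKM of at least 10, where XI-B alone passes the filter. It was 3 after quantile normalization and with a pseudocount of 0.1, where the median was 1.15 and 1.36. The median log2 ratio of 0.91 turned to -0.088 at equal sums, and was 0.15 under the median-ratio scaling, 0.147 with organelle genes and the 50 most abundant left out of the sums, 0.18 with a pseudocount of 10 and 0 with no filter, where the 5 low members enter. Over all genes past the filter the median moved as well, from -0.07 as deposited to -0.96 at equal sums. It was -0.77 under the median-ratio scaling, -0.78 with organelle genes and the 50 most abundant left out, and 0.09 after quantile normalization. XI-B itself turned to -0.25 at equal sums. With a pseudocount of 0.1, XI-D was at 1.54, XI-J at 1.66, XI-K at -1.05 and XI-C at -1.67. The share of XI-C and XI-E in WT, 2.75% as deposited, was 1.62% after quantile normalization. Shares were recomputed from estimated fragments, over all 13 class XI genes and after quantile normalization. Those of XI-A and XI-B, chosen after seeing the data, stayed within 1.5-fold under these 3, from 7.25% to 8.74% in drop and 22.4% to 25.5% in WT for XI-A. Depth limits XI-C, XI-E, XI-K and XI-2, which rest on at most 10.5 estimated fragments in either library, and without molecular identifiers PCR copies count as fragments.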

Other observations

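The DUF593 proteins, the family to which the MyoB receptors belong, have 16 genes by the words of their RefSeq descriptions, 9 more than the list used above. Of these 16, 7 passed the filter of 1 FPKM, and 6 were at least 2-fold higher and 0 lower in drop as deposited, against 1 higher and 1 lower at equal sums. Over all genes past the filter, 26.4% were called higher and 30.4% lower as deposited, against 4.39% and 48.6% at equal sums. The most abundant gene of the family was AT3G11850, described in RefSeq as a myosin-binding protein, at 261 FPKM in drop and 44.4 FPKM in WT. Its log2 ratio was 2.53 as deposited and 1.05 at equal sums, and it was picked after its values were seen. Summed over the family, FPKM was 526 in drop and 126 in WT, against 18.9 in drop and 10.03 in WT for the 9 class XI myosins.

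The ratio of summed FPKM differed between classes of transcript length, in no order by length. It was 3.22 for genes under 1 kb, 1.76 from 1 to under 2 kb, 2.96 from 2 to under 4 kb and 0.865 for genes of at least 4 kb, which summed to 931 FPKM in drop and 1075 FPKM in WT. The median log2 ratios of the genes past the filter were -0.30, -0.14, 0.26 and 0.02 in the same classes. The 9 myosins, which have transcripts of at least 4 kb, summed to a ratio of 1.88.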
